A study of Mus musculus with 15 samples.

Results

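The hypoxia and glycolysis genes are 36 mouse genes that encode the enzymes and transporters of glucose breakdown together with well known targets of the hypoxia-inducible factors (HIFs). They were chosen by symbol, as the rows of the deposited expression table that carry 1 of the 36 names, out of 18762 genes in all, and were followed through all 15 libraries. Messenger RNA had been measured by sequencing in embryonic stem (ES) cells of strain C57BL/6N, either wild type (WT) or Mettl5-/- (knockout, KO; METTL5 is a methyltransferase of ribosomal RNA). Each genotype was taken in 3 cultures: undifferentiated ES cells at day 0, embryoid bodies (EBs) formed for 6 days in medium without LIF, the cytokine that keeps ES cells undifferentiated, in dishes coated to stop attachment, and cells kept for 6 days in N2B27, a medium for neural differentiation. Each culture had 2 WT libraries and 3 KO libraries. WT replicate 1 is the library titled Ctr and WT replicate 2 the library titled WT. KO replicates 1 to 3 carry these numbers in their titles, and no source used here says whether a number marks a clone. Nothing states that the libraries of a group came from separate cultures, so p-values here reflect only how far these libraries differ, which may be technical.

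The HIFs are transcription factors made of an oxygen-sensitive alpha subunit and the stable partner ARNT. When oxygen is ample, the prolyl hydroxylases encoded by the Egln genes modify the alpha subunit, and the VHL ubiquitin ligase then marks it for destruction. When oxygen is short the alpha subunit stays, enters the nucleus and raises genes for glucose uptake, glycolysis, lactate export, blood vessel growth, collagen maturation and removal of mitochondria. ES cells in culture are known for running glycolysis strongly even with oxygen present.

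Values are FPKM, fragment counts corrected for transcript length and for library size. They are not corrected for differences in RNA composition between libraries, so comparisons between libraries depend partly on scaling, and other scalings are given below. The FPKM of a library summed to between 451651 and 554986, and the depth estimated from the low values was 16200000 to 18100000 fragments per library. Mettl5 was lower in each KO library than in both WT libraries of the same culture, at 7.21 to 10.65 FPKM against 20.85 and 19.03 in ES cells, 5.22 to 9.07 against 17.7 and 19.79 in EBs, and 3.29 to 6.41 against 8.37 and 8.65 in N2B27. Markers of undifferentiated ES cells summed to 3446 to 3803 FPKM in ES cells, 1253 to 1741 in EBs and 169 to 273 in N2B27, and neural markers were highest in N2B27 (429 to 631 FPKM). Differences are given in log2(FPKM + 1), a scale that understates the change of low genes, and were tested with limma over the 12929 genes that reached an FPKM of 1 in at least 2 libraries. Of the 36 genes 35 passed that filter. Car9, a cell surface carbonic anhydrase, did not, with at most 0.91 FPKM in any library.

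The EB libraries stood apart from one another in these genes, and the division did not follow genotype. KO EB replicate 2 and WT EB replicate 1 were the high libraries, KO EB replicate 3 was intermediate, and KO EB replicate 1 and WT EB replicate 2 were the low ones. Set against the ES library of the same name, the median log2 change of the 35 genes was 1.62 in KO EB replicate 2, 1.22 in WT EB replicate 1, 1.01 in KO EB replicate 3, 0.70 in KO EB replicate 1 and 0.55 in WT EB replicate 2. The median over all 12929 genes lay between 0.05 and 0.13 in the same 5 libraries. A log2 change of at least 1 was seen for 24 of the 35 genes in KO EB replicate 2, 20 in WT EB replicate 1, 18 in KO EB replicate 3, 11 in KO EB replicate 1 and 6 in WT EB replicate 2, where 9.13% to 11.8% of all genes moved that far. The 36 genes together took 3.90% of the summed FPKM in KO EB replicate 2 and 3.37% in WT EB replicate 1, against 2.46% to 2.99% in the other EB libraries, 2.26% to 2.35% in ES cells and 1.81% to 1.94% in N2B27.

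**Figure D1:**
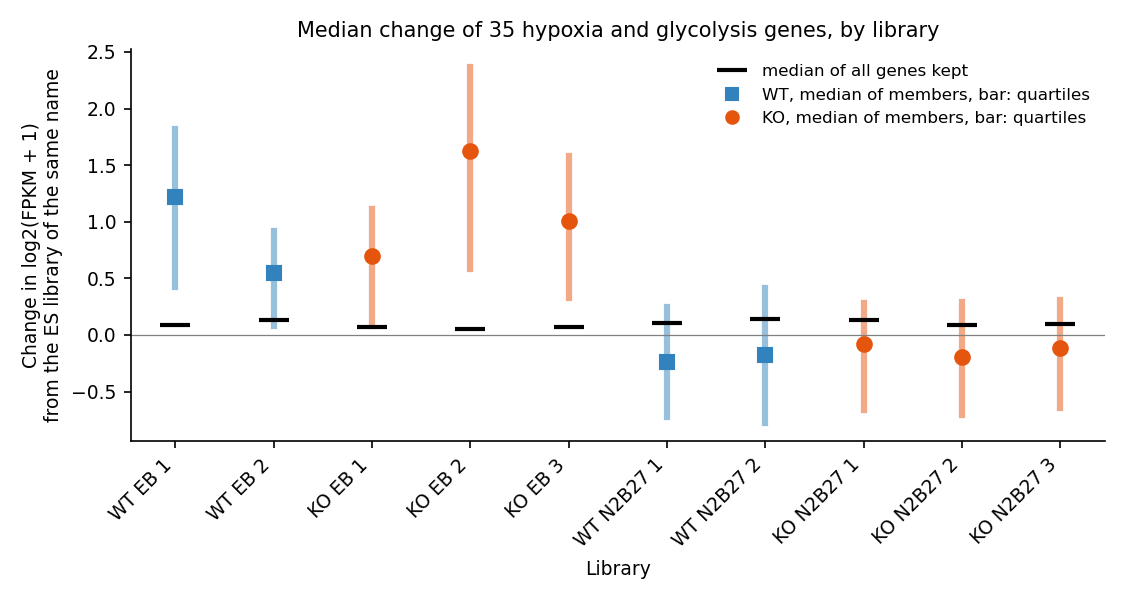
Median change of the 35 genes in log2(FPKM + 1) for each day 6 library minus the ES library of the same name, with bars from the lower to the upper quartile of the genes and a black dash at the median of all 12929 genes. The EB medians run from 0.55 to 1.62, and the N2B27 medians from -0.24 to -0.08, below the dash.

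Most genes kept the same order of the EB libraries. The highest EB value was in KO EB replicate 2 for 32 of the 35 genes, a position it held for 22.1% of all genes. The lowest was in WT EB replicate 2 for 29 of them, against 18.7% of all genes, and in KO EB replicate 1 for 5 (22.6% of all genes). The full order of KO EB replicate 2, then WT EB replicate 1, then KO EB replicate 3, then the other two, held for 29 of the 35 genes and for 5.22% of all genes. KO EB replicate 2 and WT EB replicate 1 both exceeded the other 3 libraries for 31 of the 35 genes and for 17.2% of all genes. The exceptions to KO EB replicate 2 as the highest library were Pdk1 (highest in KO EB replicate 3), Pfkfb4 (WT EB replicate 2) and Ldha (WT EB replicate 1). The spread was wider in EBs than in the other cultures: the median gene ranged over 1.02 log2 units across the 5 EB libraries (0.36 for all genes), but over 0.23 across ES libraries (0.23 for all genes) and 0.31 across N2B27 libraries (0.30 for all genes). In EBs 18 of the 35 genes ranged over at least 1 log2 unit (4.07% of all genes), in ES cells 0 (0.828%), and in N2B27 only P4ha2 (3.23%). These shares are descriptions of 5 libraries, with no test.

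**Figure D2:**
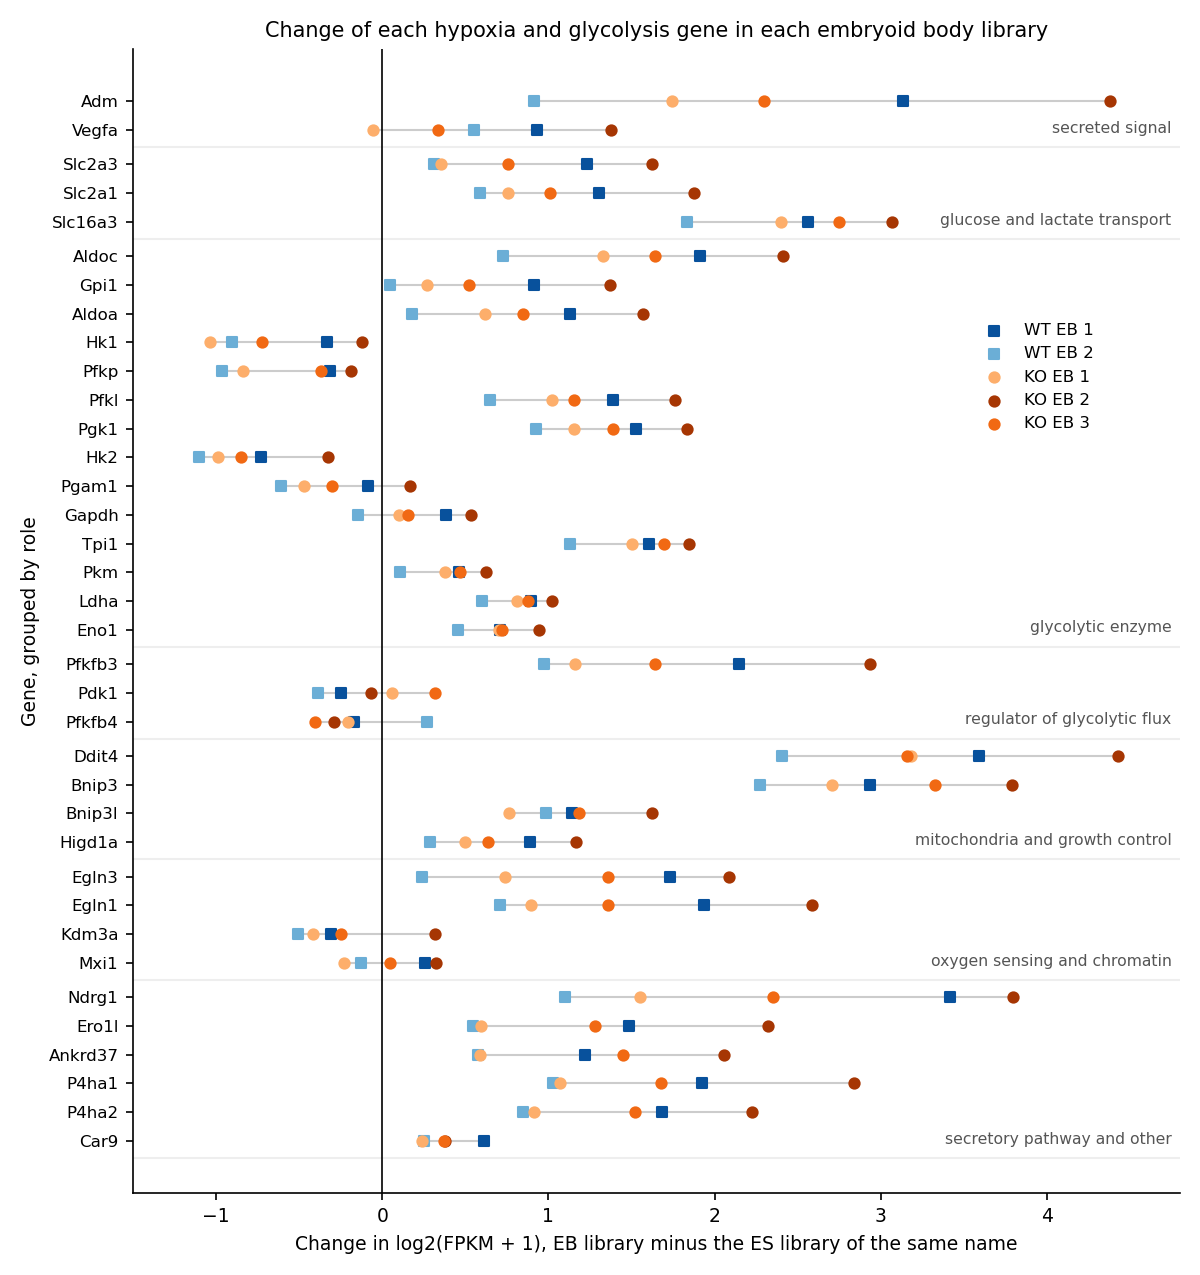
Change of each of the 36 genes in log2(FPKM + 1) from the ES library of the same name, with 1 point per EB library, squares for WT and circles for KO, and genes grouped by role. The darkest circles (KO EB replicate 2) lie farthest right for most genes, with Pdk1 and Pfkfb4 among the exceptions, and the light squares (WT EB replicate 2) lie farthest left for most.

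Among the secreted signals, Adm had the widest EB range of the 35 genes. Adm encodes adrenomedullin, a peptide that widens blood vessels and is a classic HIF target. Its level was 0.25 and 0.23 FPKM in the WT ES libraries (replicates 1 and 2) and 0.14, 0.25 and 0.23 in the KO ES libraries (replicates 1, 2 and 3), and this order of replicates is kept below. In EBs Adm was 9.98 and 1.32 FPKM in WT against 2.82, 25.1 and 5.05 in KO. The N2B27 libraries held 0.41 and 0.6 FPKM in WT against 0.53, 0.41 and 0.55 in KO. The highest EB library thus held 19.0 times the lowest, and the highest and lowest differed within each genotype by 7.56 times in WT and 8.89 times in KO. Vegfa, the vascular growth factor, ranged from 12.5 FPKM in KO EB replicate 1 to 40.0 in KO EB replicate 2, a ratio of 3.21. WT EB replicate 1 (27.8 FPKM) was again second for Vegfa, with 17.8 and 17.9 in the remaining EB libraries.

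Genes of the secretory pathway and collagen maturation ranked the EB libraries in much the same way. Ndrg1, a stress-responsive gene of the N-myc downregulated family, had 1.96 and 2.21 FPKM in WT ES cells and 1.73, 2.55 and 1.72 in KO. Its EB levels were 30.7 and 5.88 in WT against 6.99, 48.4 and 12.9 in KO, and its N2B27 levels 13.2 and 15.3 in WT against 9.59, 7.94 and 12.1 in KO. Ndrg1 was therefore above its ES level in all 10 day 6 libraries, and the EB libraries spanned a ratio of 8.23. Ero1l, an oxidase that helps form disulfide bonds in the endoplasmic reticulum (current symbol Ero1a), had 25.4 and 23.1 FPKM in WT against 22.6, 27.2 and 25.1 in KO ES cells. The EB levels of Ero1l were 72.9 and 34.3 in WT against 34.6, 140.1 and 62.6 in KO, against 21.2 and 28.5 and, in KO, 21.3, 21.8 and 24.3 in N2B27. Of the N2B27 libraries 1 exceeded the ES range and 3 lay under it, while all 5 EB libraries exceeded it, and KO EB replicate 2 held 4.08 times the level of WT EB replicate 2.

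P4ha1 and P4ha2 encode the catalytic subunits of collagen prolyl hydroxylase, which stabilises the collagen triple helix. P4ha1 rose from 6.32 and 6.27 FPKM in WT against 5.26, 5.47 and 5.16 in KO ES cells to 26.8 and 13.8 in WT against 12.2, 45.3 and 18.7 in KO EBs. In N2B27 it was 12.8 and 17.4 in WT against 14.8, 11.3 and 21.8 in KO. For P4ha1 every day 6 library of either culture exceeded every ES library. P4ha2 went from 3.38 and 2.99 FPKM in WT against 3.39, 3.46 and 2.74 in KO ES cells to 13.1 and 6.18 against 7.28, 19.9 and 9.72 in EBs and 12.4 and 16.9 against 8.95, 7.22 and 12.04 in N2B27. Here the WT N2B27 libraries exceeded all KO N2B27 libraries. Ankrd37, a small ankyrin repeat protein gene, spanned 7.35 to 29.1 FPKM in EBs and 3.59 to 6.24 in ES cells.

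In the group for mitochondria and growth control, Ddit4 encodes REDD1, an inhibitor of mTORC1 signalling. Ddit4 had 10.8 and 9.16 FPKM in WT against 7.01, 9.13 and 9.34 in KO ES cells. It had 141 and 52.8 in WT against 71.6, 218 and 91.5 in KO EBs, and 87.5 and 105 in WT against 96.97, 112 and 84.4 in KO N2B27 cells. Both day 6 cultures lay above all ES libraries for Ddit4, but the spread of 4.12 times among EB libraries compares with 1.33 times in N2B27. Bnip3, a receptor for the removal of mitochondria by autophagy, had 13.2 and 9.75 FPKM in WT against 8.79, 11.3 and 9.13 in KO ES cells, 108 and 51.05 against 63.05, 169.6 and 101 in EBs, and 9.36 and 9.4 against 10.5, 8.58 and 9.12 in N2B27. Bnip3 was thus above the ES range in all 5 EB libraries and inside or just under it in N2B27. Its relative Bnip3l ranged from 80.4 to 152 FPKM in EBs, and Higd1a, a mitochondrial inner membrane protein gene, from 13.7 to 24.8.

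Among the oxygen sensors, Egln1 (PHD2, the main HIF prolyl hydroxylase) had 9.33 and 8.79 FPKM in WT against 8.65, 9.03 and 8.19 in KO ES cells. The EB libraries held 38.5 and 14.99 in WT against 16.9, 59.2 and 22.6 in KO, and the N2B27 libraries 14.4 and 12.4 against 11.6, 12.2 and 12.2. Egln3 (PHD3) had 6.83 and 6.57 FPKM in WT against 6.14, 7.33 and 6.03 in KO ES cells, 24.97 and 7.95 against 10.9, 34.4 and 17.1 in EBs, and 2.34 and 2.65 against 4.23, 3.36 and 5.43 in N2B27. The ratio of the highest to the lowest EB library was 3.95 for Egln1 and 4.33 for Egln3, and both genes ranked the libraries alike. The chromatin genes moved less: Kdm3a, a histone demethylase, ranged from 12.6 to 24.3 FPKM in EBs, and Mxi1, an antagonist of MYC, from 7.34 to 12.4.

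**Figure D3:**
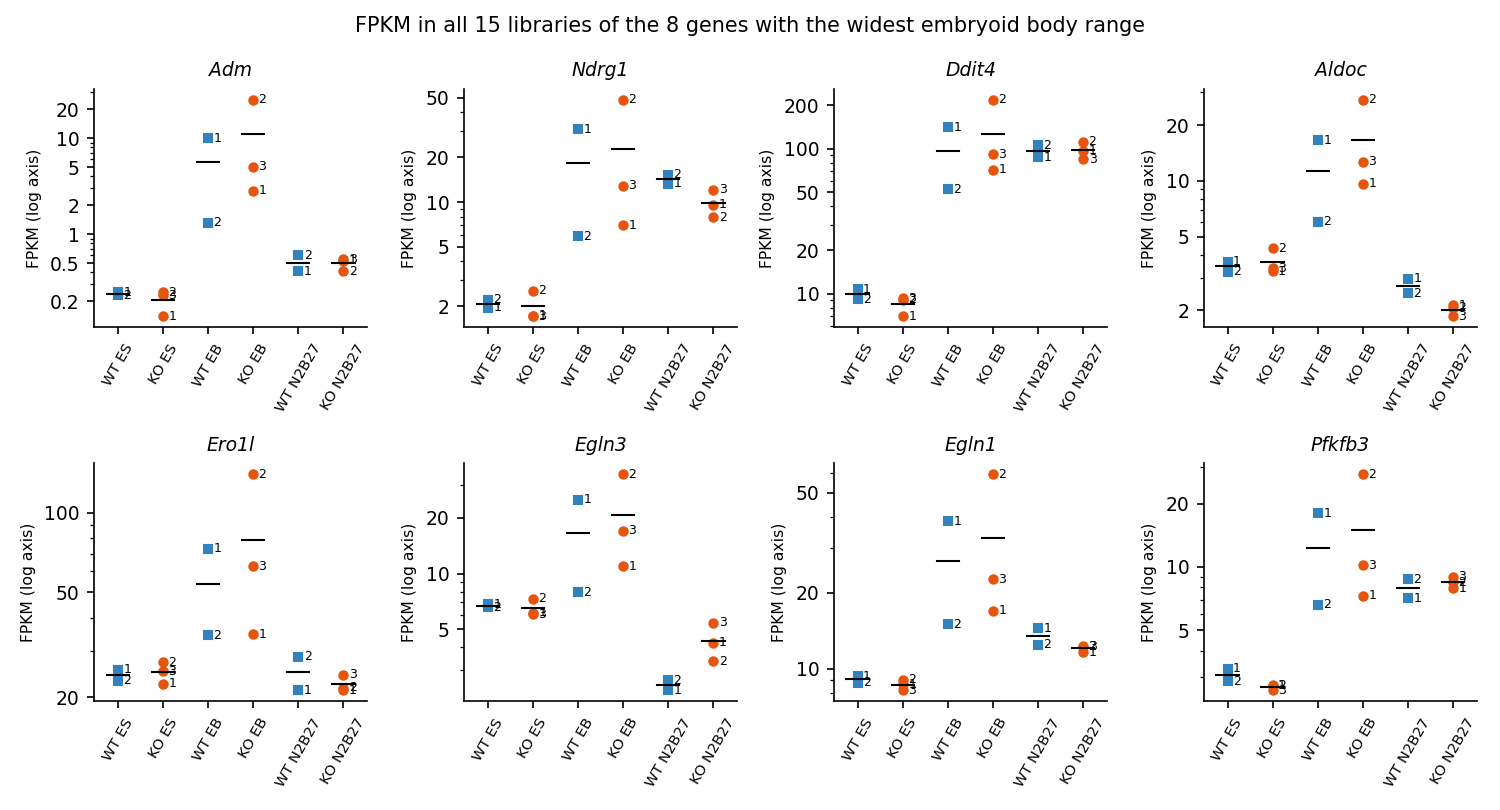
FPKM on a log axis in all 15 libraries of the 8 genes with the widest EB range, with squares for WT, circles for KO, a digit for the replicate and a bar for the group mean. In each panel KO EB replicate 2 is the highest EB point, WT EB replicate 1 the next, and WT EB replicate 2 the lowest, while the ES points lie close together.

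Glucose and lactate carriers were among the more abundant genes. Slc2a1 and Slc2a3 encode the glucose transporters GLUT1 and GLUT3, and Slc16a3 encodes the lactate exporter MCT4. Slc2a1 ranged from 350 to 769.8 FPKM over the EB libraries, Slc2a3 from 307 to 810.4 and Slc16a3 from 87.2 to 172. In ES cells the highest library held only 1.17, 1.09 and 1.40 times the lowest for these genes.

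The 14 glycolytic enzymes covered a wide span of levels, from 6.00 to 27.4 FPKM for Aldoc to 5369 to 8197 for Gapdh in EBs. Aldoc, the brain form of aldolase, had 3.67 and 3.23 FPKM in WT against 3.25, 4.34 and 3.38 in KO ES cells, 16.6 and 6 against 9.66, 27.4 and 12.7 in EBs, and 2.96 and 2.47 against 2.13, 2.07 and 1.86 in N2B27. Aldoc thus spanned 4.56 times among EB libraries, the widest of the enzymes. Hk1, Gpi1, Aldoa, Pgk1, Pfkl and Pfkp spanned 1.96 to 2.46 times. Hk2 spanned 1.79 times, and Tpi1, Gapdh and Pgam1 spanned 1.495 to 1.54 times. Eno1, Pkm and Ldha spanned 1.24 to 1.29 times. Ldha, which turns pyruvate into lactate, had 714 and 706 FPKM in WT against 625, 623 and 614 in KO ES cells, 1329.95 and 1072 against 1095, 1264 and 1128 in EBs, and 181 and 196 against 156, 213 and 152 in N2B27. For Ldha the cultures separated completely, with every EB library above every ES library and every N2B27 library below. Gapdh, Pgk1, Ldha, Aldoa, Eno1, Pgam1, Tpi1 and Pkm have near-identical copies in the mouse genome, among which reads can be shared, so their levels carry that uncertainty.

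The hexokinases, which trap glucose in the cell, and Pfkp, the platelet form of phosphofructokinase, went the other way from most of the enzymes. Hk1 had 18.4 and 18.6 FPKM in WT against 22.5, 22.02 and 21.8 in KO ES cells, 14.4 and 9.46 against 10.4, 20.2 and 12.8 in EBs, and 8.81 and 7.64 against 7.66, 7.22 and 7.95 in N2B27. Hk2 had 60 and 55.5 FPKM in WT against 53.3, 56.97 and 56.2 in KO ES cells, 35.9 and 25.3 against 26.4, 45.3 and 30.7 in EBs, and 16.2 and 18.6 against 17.3, 19.5 and 17.7 in N2B27. For Hk2 every EB library lay below every ES library, and every N2B27 library below every EB library. Pfkp had 35.2 and 32.4 FPKM in WT against 33.6, 38.02 and 32.99 in KO ES cells, 28.1 and 16.1 against 18.4, 33.2 and 25.3 in EBs, and 2.25 and 2.36 against 1.98, 2.07 and 2.24 in N2B27. Although lower than in ES cells, Hk1, Hk2 and Pfkp still ranked the EB libraries with KO EB replicate 2 first and WT EB replicate 2 last.

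The regulators of glycolytic flux behaved unlike each other. Pfkfb3 makes the activator of phosphofructokinase and followed the common order: it had 3.29 and 2.87 FPKM in WT against 2.72, 2.74 and 2.59 in KO ES cells, 17.97 and 6.61 against 7.31, 27.6 and 10.2 in EBs, and 7.11 and 8.73 against 7.93, 8.47 and 8.99 in N2B27. Pfkfb4, a related enzyme, stayed at 0.67 to 1.22 FPKM in EBs. Pdk1, the kinase that shuts pyruvate out of the mitochondrial citric acid cycle, had 43.2 and 38.2 FPKM in WT against 39.9, 43.05 and 41.3 in KO ES cells, 36.2 and 28.9 against 41.6, 41.1 and 51.8 in EBs, and 3.8 and 3.43 against 5.21, 3.38 and 5.37 in N2B27. For Pdk1 the KO EB libraries all exceeded the WT ones, and KO EB replicate 2 was not the highest.

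Promoter sequences are shown because the genes moved together across EB libraries, for the steepest gene (Adm), a mitophagy gene and an oxygen sensor that followed the same order (Bnip3 and Egln1), a gene with many motif matches and a narrow EB range (Ldha) and a gene with no match and a wider range (Gpi1). Each window runs from 250 bases before to 50 bases after the transcription start in the RefSeq annotation of GRCm38.p6, 5′ to 3′ on the strand of the gene. Capitals mark every match to ACGTG or GCGTG, the core of the element to which HIF binds, on either strand (CACGT and CACGC on the other). The Adm window is chr7:110627407-110627706 (plus strand), that of Bnip3 chr7:138909457-138909756 (minus strand), that of Egln1 chr8:124949205-124949504 (minus strand), that of Ldha chr7:46845554-46845853 (plus strand) and that of Gpi1 chr7:34230287-34230586 (minus strand).
Adm: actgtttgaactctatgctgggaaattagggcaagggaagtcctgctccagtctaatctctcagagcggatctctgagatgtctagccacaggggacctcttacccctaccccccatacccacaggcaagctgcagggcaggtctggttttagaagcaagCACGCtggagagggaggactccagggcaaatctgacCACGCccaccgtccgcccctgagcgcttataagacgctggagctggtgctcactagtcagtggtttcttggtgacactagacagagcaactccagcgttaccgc
Bnip3: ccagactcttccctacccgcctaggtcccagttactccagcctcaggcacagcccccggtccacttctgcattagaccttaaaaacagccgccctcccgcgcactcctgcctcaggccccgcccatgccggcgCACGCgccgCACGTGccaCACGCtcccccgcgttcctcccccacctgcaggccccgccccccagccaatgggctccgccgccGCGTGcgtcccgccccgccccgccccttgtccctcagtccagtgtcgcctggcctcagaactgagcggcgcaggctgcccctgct
Egln1: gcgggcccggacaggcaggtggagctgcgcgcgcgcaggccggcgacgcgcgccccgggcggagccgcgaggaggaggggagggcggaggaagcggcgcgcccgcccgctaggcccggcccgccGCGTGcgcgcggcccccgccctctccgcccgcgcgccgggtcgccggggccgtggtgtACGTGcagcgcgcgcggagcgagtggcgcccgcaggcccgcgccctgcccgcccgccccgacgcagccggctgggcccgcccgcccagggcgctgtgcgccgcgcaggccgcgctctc
Ldha: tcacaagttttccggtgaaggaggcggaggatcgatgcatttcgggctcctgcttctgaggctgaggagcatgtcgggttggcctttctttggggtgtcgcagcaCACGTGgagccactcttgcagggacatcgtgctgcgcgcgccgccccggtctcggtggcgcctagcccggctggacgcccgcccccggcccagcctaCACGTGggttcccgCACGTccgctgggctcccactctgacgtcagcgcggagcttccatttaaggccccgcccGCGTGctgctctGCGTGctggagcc
Gpi1: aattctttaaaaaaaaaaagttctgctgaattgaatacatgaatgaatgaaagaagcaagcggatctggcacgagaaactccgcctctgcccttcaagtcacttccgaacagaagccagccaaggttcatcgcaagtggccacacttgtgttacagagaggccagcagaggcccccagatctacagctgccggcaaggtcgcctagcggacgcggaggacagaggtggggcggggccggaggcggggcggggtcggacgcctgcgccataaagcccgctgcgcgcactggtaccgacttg

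The core was found 2 times in the Adm window, 5 times in Bnip3, 2 times in Egln1 and 7 times in Ldha, and 0 times in Gpi1. A CACGTG stretch reads as the core on either strand and was counted as 2 matches. Bnip3 holds 1 such stretch and Ldha 2, so their capitalised stretches are fewer than their matches. Ldha spanned 1.24 times among EB libraries and Gpi1 2.46 times, and since both were picked for this contrast, nothing follows from it about matches and EB range, which were not compared over the windows. RefSeq windows were matched for 33 of the 36 genes, with 48 windows, since a gene may have several starts whose windows can overlap. At least 1 core match was present in 79.2% of the 48 windows, in 43.8% of the 32851 windows of all genes and in 61.6% of the 13271 windows of the genes that passed the filter. For ACGTG alone these shares were 56.25%, 19.6% and 25.2%, and for GCGTG alone 56.25%, 32.4% and 50.2%. The motif GGGCGG, searched for comparison of base composition, was in 77.1% of the windows of the 36 genes, 35.7% of all windows and 62.9% of those of the genes that passed the filter. ACGTG also lies within the E-box CACGTG, which was in 6.25%, 7.15% and 9.95% of these windows. A match is a stretch of letters, not a bound site, and a window without a match says only that these letters are not in it.

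In WT the EB libraries were higher than the ES libraries for 19 of the 35 genes and lower for 3 at an adjusted p below 0.05, where 35.8% of all genes were higher and 23.6% lower. In KO 25 genes rose and 4 fell, where 36.2% of all genes were higher and 28.5% lower. The 19 genes that rose in WT were all among the 25 that rose in KO (100.0% of the WT genes and 76.0% of the KO genes), and Hk1, Hk2 and Pfkp fell in both. The median log2 difference of the 35 genes was 0.90 in WT and 1.19 in KO, against 0.11 and 0.06 over all genes. Under median-ratio scaling 18 of the 35 genes rose and 6 fell in WT, where 4007 of all 12929 genes were higher and 3847 lower.

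By role, the 4 genes for mitochondria and growth control rose in both genotypes. Ddit4 rose by 2.996 ± 0.44 (SE; adjusted p = 4.27e-05) in WT and 3.59 ± 0.36 (SE; adjusted p = 8.15e-07) in KO by limma, and Bnip3 by 2.61 ± 0.36 (SE; adjusted p = 2.65e-05) and 3.28 ± 0.29 (SE; adjusted p = 3.05e-07). Of the 3 transporters, 2 rose in WT and 3 in KO. Slc16a3 rose by 2.20 ± 0.24 (SE; adjusted p = 2.95e-06) in WT and 2.74 ± 0.20 (SE; adjusted p = 3.27e-08) in KO. Of the 14 glycolytic enzymes, 7 rose and 3 fell in WT, and 9 rose and 3 fell in KO. Tpi1, triose phosphate isomerase, was the enzyme with the smallest error relative to its rise, at 1.37 ± 0.15 (SE; adjusted p = 3.68e-06) in WT and 1.68 ± 0.12 (SE; adjusted p = 4.74e-08) in KO. Hk2 fell, with log2 differences of -0.91 ± 0.19 (SE; adjusted p = 0.000997) in WT and -0.72 ± 0.16 (SE; adjusted p = 0.0011) in KO. Of the 5 genes in the secretory and other group, 3 rose in WT (Ndrg1, P4ha1 and P4ha2) and 5 in KO, which added Ero1l and Ankrd37. Adm rose by 2.03 ± 0.70 (SE; adjusted p = 0.0223) in WT and 2.81 ± 0.57 (SE; adjusted p = 0.000625) in KO, whereas Vegfa, at 0.74 ± 0.35 (SE; adjusted p = 0.0811) and 0.55 ± 0.28 (SE; adjusted p = 0.103), was not called. Neither were Pdk1, Gapdh, Pgam1, Kdm3a and Mxi1 in either genotype. All these errors rest on a spread shared by the cultures, so they understate the EB spread of genes that varied mainly in EBs.

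**Figure D4:**
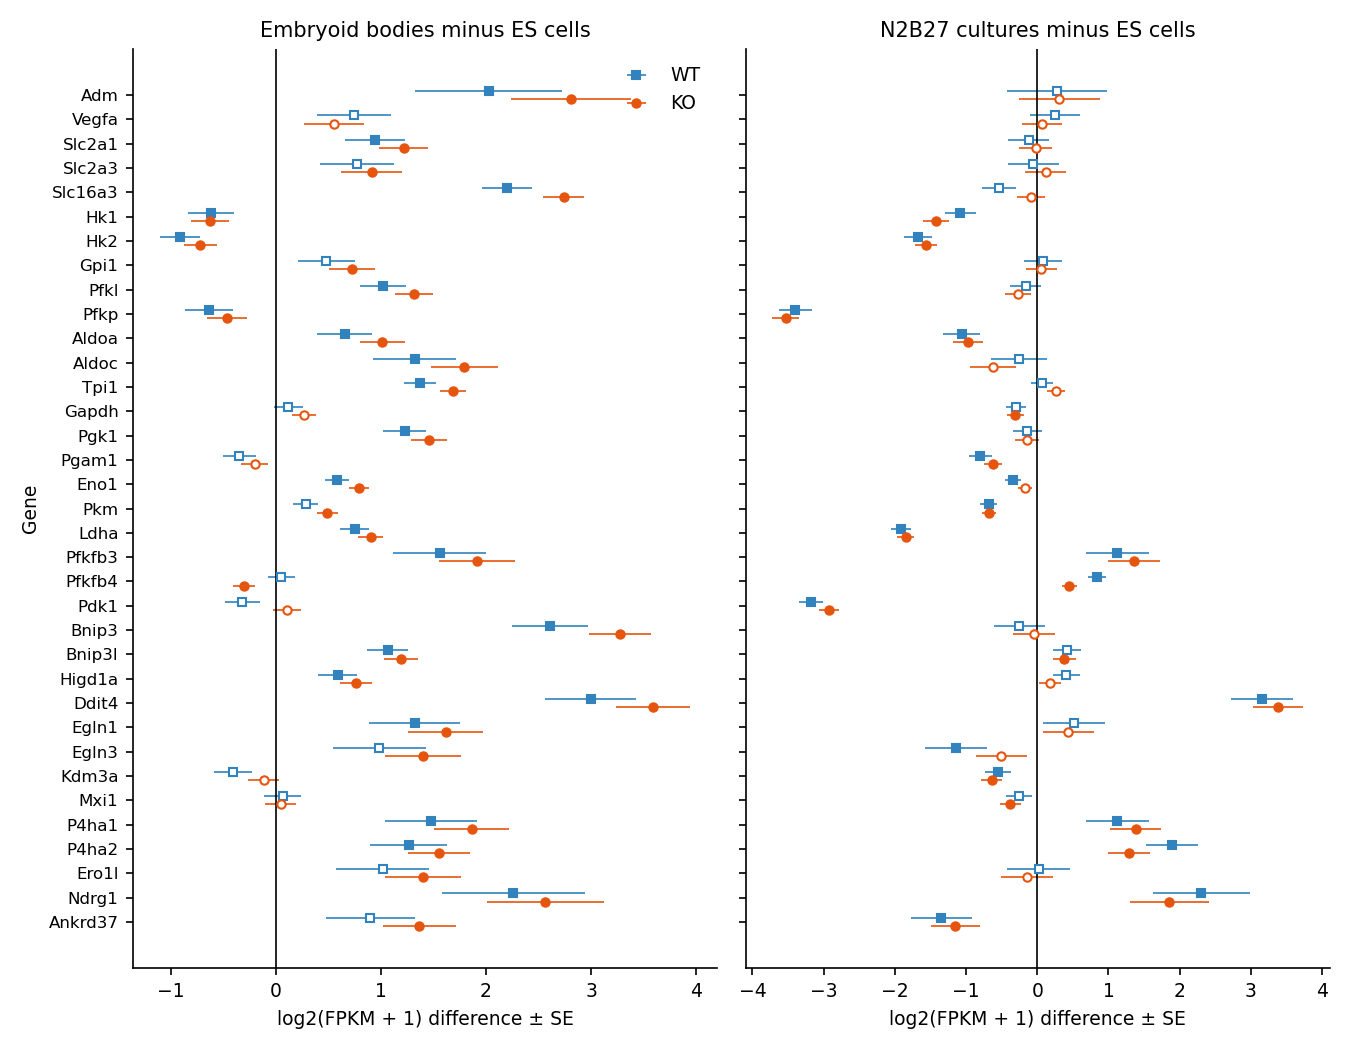
Log2 difference from ES cells of each of the 35 genes in EBs and in N2B27, for WT and KO, with filled points where the adjusted p was below 0.05 and open points elsewhere. Horizontal bars are standard errors. In EBs most points lie right of 0, with Ddit4 and Bnip3 farthest, and in N2B27 Pfkp, Pdk1 and Ldha lie farthest left.

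The WT result rested partly on WT EB replicate 1. Without it the median log2 difference of the 35 genes was 0.48 (0.11 over all genes), and without WT EB replicate 2 it was 1.25 (0.10 over all genes). In these fits a lone WT EB library is assumed to vary like the others. The WT calls lost without WT EB replicate 1 were those of Adm, Slc2a1, Aldoa, Aldoc, Pfkfb3, Higd1a, Egln1, P4ha1, P4ha2 and Ndrg1. Of these the call of Aldoa was lost in 8 of 11 settings, those of Adm and Egln1 also without either WT ES library, those of Slc2a1 and Aldoc without WT ES replicate 2, and that of Higd1a without WT ES replicate 1. In KO the call of Slc2a3 was lost without KO EB replicate 2 (adjusted p = 0.0645). The falls of Hk1 and Pfkp in WT, and of Pfkp and Pfkfb4 in KO, were each lost when some single libraries were left out. The calls of Slc16a3, Tpi1, Pgk1, Eno1, Ldha, Pfkl, Bnip3, Bnip3l, Ddit4 and Hk2 held in both genotypes under each setting tried and without any single library.

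In N2B27 8 of the 14 glycolytic enzymes fell from their ES level in each genotype and 0 rose. Of the 35 genes 6 rose and 12 fell in WT, where 41.5% of all genes were higher and 29.2% lower, and 7 rose and 12 fell in KO, where 43.5% were higher and 33.2% lower. The largest falls by limma were in Pfkp, at -3.39 ± 0.23 (SE; adjusted p = 9.18e-09) in WT and -3.53 ± 0.19 (SE; adjusted p = 4e-10) in KO, in Pdk1, at -3.17 ± 0.17 (SE; adjusted p = 6.51e-10) and -2.93 ± 0.14 (SE; adjusted p = 9.46e-11), and in Ldha, at -1.91 ± 0.14 (SE; adjusted p = 2.45e-08) and -1.85 ± 0.12 (SE; adjusted p = 2.4e-09). Hk1, Hk2, Aldoa, Pgam1 and Pkm fell in both genotypes as well. The genes that rose in both were Ddit4, Ndrg1, P4ha1, P4ha2, Pfkfb3 and Pfkfb4. Ddit4 rose by 3.15 ± 0.44 (SE; adjusted p = 1.52e-05) in WT and 3.38 ± 0.36 (SE; adjusted p = 6.77e-07) in KO, close to its EB change, and Ndrg1 by 2.30 ± 0.68 (SE; adjusted p = 0.00731) and 1.85 ± 0.55 (SE; adjusted p = 0.0072). Adm, Bnip3, Slc2a1, Slc2a3, Slc16a3, Pgk1, Tpi1 and Gpi1 were not called in N2B27. Errors in this fit include the EB spread of each gene. When only the groups compared were fitted, 9 of the 35 rose and 13 fell in WT (5254 and 3676 of all 12929 genes). In KO 10 rose and 15 fell in that fit (5786 and 4453 of all genes). The median log2 difference of the 35 genes was -0.16 in WT and -0.14 in KO, and that of all genes was 0.12 and 0.11. Median-ratio scaling moved the median of all genes to -0.0044 in WT and 0.0026 in KO, and TPM scaling moved it to 0.22. Under median-ratio scaling 4 of the 35 genes were up and 14 down in WT, where 4661 of all 12929 genes were higher and 4596 lower. The median of the 35 genes was -0.31 in WT and -0.26 in KO under median-ratio scaling, -0.07 and -0.02 under TPM scaling, and in KO -0.08 without KO ES replicate 2. The WT rises of Pfkfb3 and P4ha1 were lost under median-ratio scaling, without the filter, and when either WT ES library or WT N2B27 replicate 2 was left out. The calls of Eno1, Egln3, Kdm3a and Ankrd37 in WT, and of Gapdh, Bnip3l and Mxi1 in KO, were each lost under at least 1 alternative.

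Between the genotypes 0 of the 35 genes were called in any culture. In ES cells limma called 0.00% of all genes in either direction. An unadjusted p below 0.05 was reached there by 1 of the 35 (Pfkfb4) and by 447 of all 12929 genes. In EBs 0.650% of all genes were higher and 1.62% lower in KO, and 1 of the 35 (Pdk1) had an unadjusted p below 0.05 (1895 of all genes). In N2B27 0.0464% of all genes were higher and 0.0541% lower, and 0 of the 35 had an unadjusted p below 0.05 (1144 of all genes). The fit shares its estimate of spread over all cultures, so the wide EB spread of these genes enters their ES and N2B27 errors. When only the groups compared were fitted, 7 of the 35 had an unadjusted p below 0.05 in ES cells (1058 of all genes). In that fit 1 did in EBs (1280) and 4 in N2B27 (902), and 0 were called. Pdk1 was 0.45 ± 0.15 (SE; adjusted p = 0.167) in EBs. Adm, with the widest spread, was 0.74 ± 0.64 (SE; adjusted p = 0.654), a difference of about the size of its standard error. Adm ranged over 3.49 log2 units in EBs, but over 0.13 in ES cells and 0.18 in N2B27. Its shared error thus understates its EB spread. The difference in the change from ES cells between genotypes was called for 0 of the 35 genes in EBs, where 0.0155% of all genes were higher and 0.139% lower, and for 0 in N2B27, where 0.00% were higher and 0.00773% lower. At an unadjusted p below 0.05 these counts were 0 in EBs (991 of all genes) and 1 in N2B27 (Pfkfb4; 620 of all genes).

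The median log2 difference between KO and WT EBs was 0.22 over the 35 genes and -0.04 over all genes, with 32 of the 35 above 0. That sign changed when single libraries were left out. Without WT EB replicate 2 the median was -0.13, with 8 genes above 0, and without KO EB replicate 2 it was -0.07, with 11 above 0. Without WT EB replicate 1 it was 0.59, with 34 above 0. Leaving out KO EB replicate 1 gave 0.43 and leaving out KO EB replicate 3 gave 0.28. When both high libraries were left out together the median was 0.31 over the 35 genes and -0.04 over all genes, with 33 of the 35 above 0. Adm was then 1.05 and Aldoc 0.79. A lone WT library is left in that comparison, so only effect sizes are given. That last comparison was chosen after the values had been seen.

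**Figure D5:**
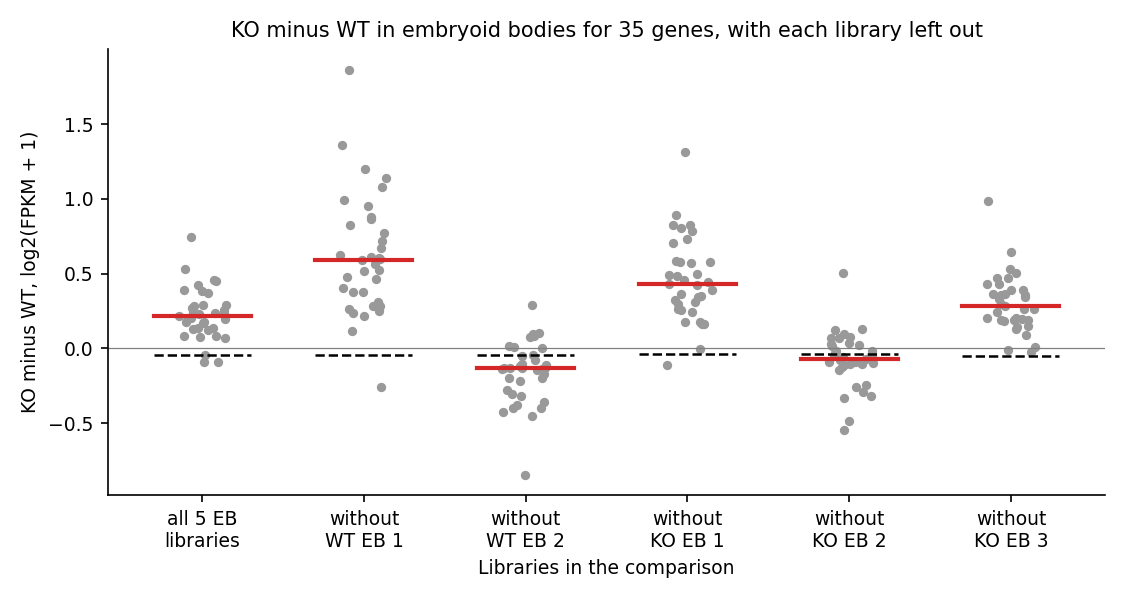
Log2 difference between KO and WT EBs over the 35 genes with all EB libraries and with libraries left out, with points for genes, a red line at their median and a dashed line at the median of all genes. The red line runs from -0.13 without WT EB replicate 2 to 0.59 without WT EB replicate 1.

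A few genes separated the genotypes completely within a culture. In EBs Eno1 and Pdk1 were higher in each KO library than in both WT libraries, where 8.34% of all genes did so, and 0 of the 35 were lower in each KO library, where 18.1% of all genes were. Eno1 had 1671 and 1519.8 FPKM in WT against 1773, 1882 and 1718 in KO EBs. In ES cells 3 genes were higher (Hk1, Pfkfb4 and Mxi1; 12.7% of all genes) and 8 lower (Slc2a1, Slc16a3, Aldoa, Tpi1, Pkm, Ldha, Pfkfb3 and P4ha1; 11.3%). In N2B27 Egln3 was higher (8.88%) and 8 genes were lower (Pfkp, Aldoc, Pfkfb4, Higd1a, Egln1, Kdm3a, P4ha2 and Ndrg1; 13.2%). The share of lower genes in ES cells and N2B27 was above that of all genes, but 0 of these genes passed the limma test.

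Other genes of the same pathways were taken from lists, and their counts stand against the shares of all genes given above, 35.8% higher and 23.6% lower in WT EBs and 36.2% higher and 28.5% lower in KO EBs. Of 18 genes that regulate HIF, 5 were higher and 6 lower in WT EBs than in ES cells, and 4 were higher and 8 lower in KO EBs. Epas1 (HIF-2 alpha) fell by 2.80 in WT and 2.62 in KO on the log2 scale, whereas Hif1a, at 0.18 and 0.09, was not called. Both high libraries lay above the other EB libraries for 3 of the 18, against 17.2% of all genes. Of 47 further HIF targets tested, 27 were higher and 4 lower in WT EBs and 31 higher and 4 lower in KO EBs, and 33 had both high libraries above the rest. Ndufa4l2, a mitochondrial complex subunit relative, had 20.2 and 2.26 FPKM in WT against 5.80, 26.3 and 9.78 in KO EBs, the same order as Adm. Of 25 further genes of glycolysis and pyruvate use, 10 were higher and 5 lower in WT EBs, 11 higher and 8 lower in KO EBs, and 8 had both high libraries above the rest.

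Between KO and WT EBs, limma called 4 genes of these lists, all lower in KO. They were 2 of the 18 HIF regulators, 2 of the 47 further targets and 0 of the 25 further glycolysis and pyruvate genes. In this comparison 0.650% of all genes were higher and 1.62% lower in KO. Cxcr4, a chemokine receptor, had 15.2 and 13.7 FPKM in WT against 6.36, 6.06 and 3.02 in KO EBs (log2 difference -1.37 ± 0.20 SE, adjusted p = 0.00346). Kdr, a receptor for VEGF that also stands in the endothelial marker list used here, had 5.42 and 5.03 FPKM in WT against 1.68, 1.5 and 1.22 in KO EBs (-1.34 ± 0.17, adjusted p = 0.00111). Cited2, which competes with HIF for its coactivators, had a log2 difference of -0.68 ± 0.15 (adjusted p = 0.0345), and Siah2, a ubiquitin ligase acting on the prolyl hydroxylases, of -0.51 ± 0.12 (adjusted p = 0.0474). None of the 4 had the library order of Adm. Kdr was called under all 12 alternatives. The call of Cxcr4 was lost when the EB libraries alone entered the fit (adjusted p = 0.14). Cited2 lost its call under 6 alternatives, with an adjusted p of up to 0.283, among them leaving out either WT EB library or KO EB replicate 3. Siah2 lost its call under 9, with an adjusted p of up to 0.313, among them leaving out either WT EB library or KO EB replicate 1 or 3.

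Profiles over the 5 EB libraries were compared with the mean of the 35 for only 80 of the 12929 genes. These were genes with a high level in every EB library and a wide EB range, some of the 36 among them. Of those outside the 36, the most alike were Alkbh5, Txnip, Bhlhe40, Cldn3 and Gadd45b, with Pearson r of 0.979 to 0.996. Genes with lower levels or narrower ranges were not compared, so closer profiles may exist among them. The 5 points share their libraries, and so few points give high values easily. Alkbh5 had 27.5 and 15.5 FPKM in WT against 17.3, 36.1 and 20.4 in KO EBs.

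Markers of other states also moved with EB library. Of 8 markers of stressed and dying cells, 7 were highest in KO EB replicate 2 (22.1% of all genes), and 5 had both high libraries above the rest (17.2% of all genes). Their summed level was 397 FPKM in KO EB replicate 2 and 335 to 341 in the other EB libraries. It was 376 to 413 in ES cells and 531 to 613.5 in N2B27, so the sum in KO EB replicate 2 lay inside the ES range. Most of that sum came from Asns (105 FPKM) and Hspa5 (201 FPKM). No single marker lay inside its own ES range there. Ddit3, Atf3, Bbc3 and Hspa5 were above it, and Asns, Trib3, Chac1 and Sesn2 below it. Ddit3, a stress-induced transcription factor, had 9.25 and 5.05 FPKM in WT against 6.05, 19.5 and 6.53 in KO EBs. Markers of primitive streak and mesoderm summed to 147 and 109 FPKM in WT against 109, 36.9 and 37.0 in KO EBs, and those of endoderm to 46.2 and 30.5 in WT against 25.3, 11.6 and 14.3 in KO. The high libraries WT EB replicate 1 and KO EB replicate 2 were thus at opposite ends for these lineages. Of 6 simple epithelial markers 3 had both high libraries above the rest, and of the markers for undifferentiated, neural, mesoderm, endoderm, blood and fibroblast cells that passed the filter only Pecam1 did. Of those below the filter, the endoderm marker Apoa1 also did, at 0.66 and 0.54 FPKM in the high libraries and 0.12 to 0.24 in the others. No marker was at 0 in all EB libraries, and Afp was at 0 in 4 of them. The part of these markers in the spread was not tested, and in bulk RNA fewer cells of a type and less RNA per cell cannot be told apart.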

How the data were processed

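The authors deposited FPKM values per gene, with 2 decimals, for 18762 genes in 15 libraries. Per the labels' protocols, mRNA was purified with oligo(dT) beads and cDNA made from random hexamers. Per the submitters' processing notes, Bowtie2, RSEM and mm10 were used in some role. Their versions and the annotation are not given in the sources used here. Gene symbols turned into dates (27) were restored through Entrez IDs. Low values of each library were searched for the total at which most gave whole fragments, and at the best total 56.0% to 65.7% of 114 to 155 values came out whole within 0.1 fragments. No interval was computed, and no count test was run. The 12929 genes that reached an FPKM of 1 in at least 2 libraries were fitted in limma 3.58.1 (R 4.3.3), taking log2(FPKM + 1), a mean-variance trend, 6 group means and Benjamini-Hochberg adjustment over all of them at 0.05, in 9 comparisons. Every adjusted p in the text comes from limma. The EB and N2B27 comparisons share the ES libraries of a genotype.

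The 36 genes, the other gene lists and the rules were chosen with earlier results of these data known. Every library's value is given for the 8 genes with the largest range over the EB libraries and for the 3 called genes with the largest difference in each direction of each culture comparison. Genes of the other lists were named where called between KO and WT EBs or where they illustrate a list. Epas1, Hif1a and Ndufa4l2 were named after their values were seen. Alternatives were a pseudocount of 0.1, no filter, median-ratio scaling, TPM scaling, fits of only the groups compared, a replicate block and leaving out each library. The procedure was tested on simulated data. For limma their noise was drawn separately for each gene and library, so a shift shared by many genes of a library was not covered.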

Additional observations from a re-analysis of the deposited data

Results flagged for a closer look

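Pfkfb4, an enzyme that sets the level of the activator of phosphofructokinase, moved in opposite directions with genotype in 2 cultures, although its levels were low. In ES cells it had 0.97 and 0.84 FPKM in WT against 1.2, 1.45 and 1.21 in KO, so each KO library lay above both WT libraries. In N2B27 it had 2.45 and 2.37 FPKM in WT against 2.17, 2.13 and 2.07 in KO, so each KO library lay below both. The KO minus WT difference in N2B27 less that in ES cells was -0.39 on the log2(FPKM + 1) scale, and by limma this difference itself had an adjusted p of 0.97 (unadjusted p = 0.0336).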

How the results depend on the processing

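No log2 difference called in any setting reversed. Of 315 gene results over 9 comparisons, 88 were called. The calls held in every setting for 26 of 29 genes in KO EBs, 10 of 22 in WT EBs, 16 of 19 in KO N2B27 and 12 of 18 in WT N2B27. Leaving out 1 KO library at a time gave 24 to 27 higher and 2 to 6 lower genes in KO EBs. Of all 12929 genes 4256 to 4615 were then higher and 3327 to 3610 lower. In KO N2B27 it gave 6 higher and 10 to 12 lower genes (5313 to 5502 and 4014 to 4152 of all genes), and between genotypes 0. Leaving out 1 WT library left a lone library in a group, so only medians are given. The median log2 difference of the 35 genes then ran from 0.48 to 1.25 in WT EBs and from -0.19 to -0.12 in WT N2B27. Leaving out WT EB replicate 1 and KO EB replicate 2 together, chosen after seeing the data, also left a lone WT EB library. The median log2 difference between KO and WT EBs was then 0.31 over the 35 genes and -0.04 over all genes. Fitting only the groups compared gave 5 higher and 14 lower genes among all genes between KO and WT EBs, against 84 and 209. With the replicate block, for a pairing by library name, 20 genes were higher and 4 lower in WT EBs (4607 and 3021 of all genes). In KO EBs 25 were higher and 4 lower (4655 and 3661 of all genes). In WT N2B27 7 were higher and 13 lower (5347 and 3757), in KO N2B27 8 and 13 (5618 and 4278), and between genotypes 0 were called. The block was a fixed term for the changes from ES cells. For KO against WT it was a random term with an estimated correlation of -0.0059, so that fit was nearly the main fit. Same-named libraries did not regularly deviate together: the correlation of their deviations was -0.01 for WT ES with EB, -0.03 for WT ES with N2B27 and 0.06 for WT EB with N2B27. For KO replicates 1 to 3 it was 0.27, 0.06 and 0.21 for ES with EB, 0.04, 0.04 and 0.18 for ES with N2B27, and 0.03, -0.18 and 0.05 for EB with N2B27. Differently named pairs ran from -0.27 (KO EB replicate 1 with KO N2B27 replicate 3) to 0.24 (KO EB replicate 1 with KO N2B27 replicate 2). At the estimated depth, 1 fragment on 1 kb of transcript corresponds to 0.0553 to 0.0617 FPKM, so Adm in ES cells and Car9 rest on few fragments.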
